A study of Drosophila melanogaster with 4 samples.

Results

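Ork1 and 9 genes of other potassium channel classes, Sh, Shal, Shab, Shaw, eag, sei, slo, SK and Hk, were examined in heads of Drosophila melanogaster. The 10 rows were taken from the 16680 rows of the deposited gene table by exact name, and all 10 were found. Ork1 was chosen by its higher level in heads with phenotype, so its values in this contrast are a description and carry no test. The 9 others were named for their class, though with earlier results of these data known. The 2 tested libraries came from adult male Kr[If-1] flies with phenotypic variations of the eye, and the 2 others from adult male Kr[If-1] flies without phenotype. Each library was made from polyA RNA of 10 pooled heads. Both groups carried Kr[If-1], a dominant allele of the zinc finger gene Krüppel that acts in the ventral eye disc and whose exact nature is not characterized, and both were progeny of the study's exposures of parents to Cr(VI) as potassium dichromate in the food. Heads of unexposed descent were not analysed here. The libraries are named as biological repeats, and the p-values measure only the spread between them.

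Potassium channels set the resting potential of excitable cells and end each action potential. Leak channels of the two-pore domain family pass potassium at rest, voltage-gated channels open on depolarization, and calcium-activated channels open when calcium has entered. Ork1 is a leak channel of this family, and in the fly heart it sets the pause between beats. Sh, the founding gene of voltage-gated potassium channels, carries the fast transient current of muscle and of many neurons, and its mutants shake their legs under ether and sleep little.

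The values are FPKM, read numbers divided by the length of the transcript and the size of the library, so levels are given per length. The number of reads is not known from FPKM, and no counting interval was computed. From the lowest values of short genes, the depth relative to repeat 1 without phenotype was estimated as 1.12 and 0.959 in repeats 1 and 2 with phenotype and as 1.11 in repeat 2 without phenotype. If those lowest values stand for 1 read, an assumption that was not checked, Ork1 rested on 909 and 692 reads per kb with phenotype. Without phenotype it rested on 349 and 358 reads per kb under the same assumption. After genes with a mean under 1 FPKM were left out, 10194 remained to be tested, among them all 10 channel genes. The median difference of log2(FPKM + 1), with minus without phenotype, was 0.070 over the genes tested, and 6396 of them (62.7%) had a positive difference.

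The 10 genes lie on several chromosomes (dm6, Ensembl annotation). On X are Ork1, Sh (17924307 to 18063247, minus strand, 17 transcripts), eag (14955477 to 15009989, plus strand, 7 transcripts), SK (5340236 to 5405138, plus strand, 14 transcripts) and Hk (10233347 to 10263485, minus strand, 9 transcripts). Shal (19566851 to 19584568, minus strand, 3 transcripts) and Shab (2895017 to 2959579, plus strand, 10 transcripts) are on 3L, and slo (24662491 to 24711595, plus strand, 23 transcripts) is on 3R. Shaw (3718185 to 3729145, plus strand, 5 transcripts) is on 2L and sei on 2R. The table gives 1 value per gene, so isoforms were not compared.

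Levels of the 10 genes spanned about an order of magnitude and kept nearly the same order in every library. Over the 4 libraries, Shab had the highest mean (89.4 ± 5.95 FPKM, SD, n = 4), followed by Sh (71.0 ± 5.11), Hk (66.2 ± 2.73), slo (59.2 ± 6.0), SK (44.2 ± 2.41), Shal (37.7 ± 2.13), Shaw (35.8 ± 2.98), sei (19.6 ± 1.68), eag (14.1 ± 1.13) and Ork1 (10.2 ± 4.63). These SDs are of FPKM over both groups. The ranges over the 4 libraries overlapped between Sh and Hk, Hk and slo, Shal and Shaw, and eag and Ork1, so these neighbors in the order were not apart beyond their spread. Within a library the order was steadier. Sh was above Hk and Hk above slo in 4 of 4 libraries, and Shal was above Shaw in 3 of 4. Ork1 was the lowest of the 10 in 3 libraries and was above eag in repeat 1 with phenotype. By mean level, Ork1 lay at percentile 36.2 of the genes tested, and Shab at percentile 88.8.

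**Figure D1:**
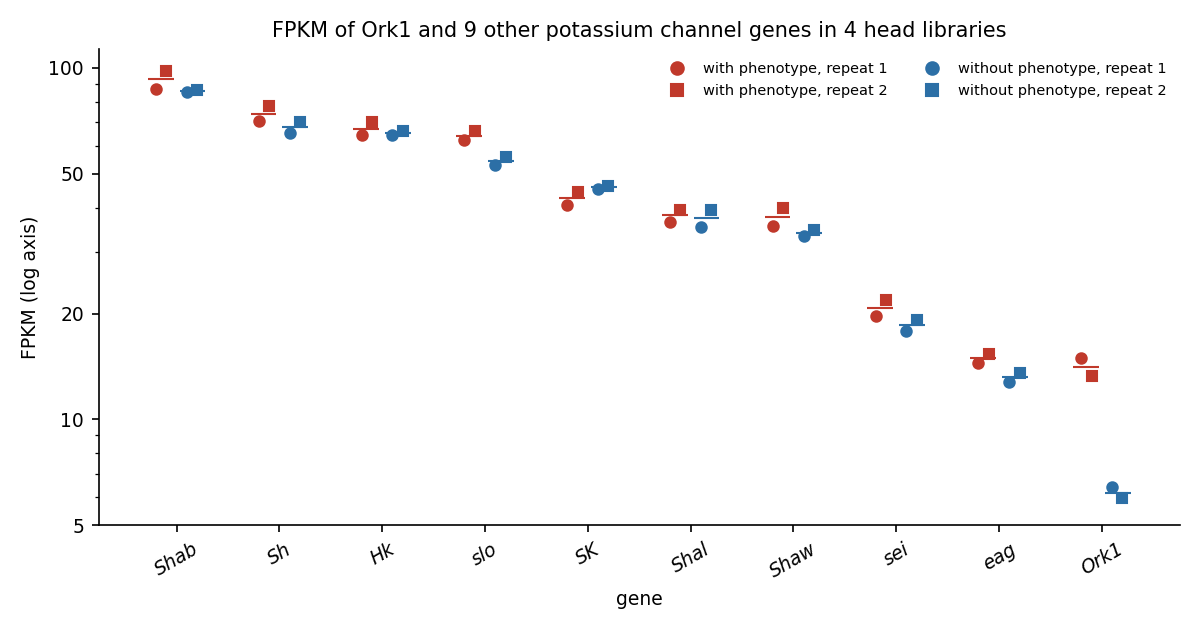
FPKM of the 10 channel genes (log axis), ordered by mean level, with circles for repeat 1 and squares for repeat 2 of each group and a line at each group mean (n = 2). Ork1 is the gene whose groups lie farthest apart, with 15.0 and 13.3 FPKM with phenotype and 6.43 and 5.96 FPKM without phenotype.

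Ork1 was at 15.0 and 13.3 FPKM in the 2 libraries with phenotype and at 6.43 and 5.96 FPKM in those without phenotype. Both libraries with phenotype were higher than both without, and the gap between the groups was wider than the gap within either. The means were 14.1 ± 1.16 FPKM with phenotype and 6.20 ± 0.332 FPKM without phenotype (SD, n = 2 each), a ratio of 2.28. On log2(FPKM + 1) the difference was 1.07, at rank 74 of the 10194 genes tested in descending order, and the SD within groups was 0.091. Without single libraries the difference was 0.99 to 1.15. These are the values for which Ork1 was chosen. As a share of the summed FPKM of all 10 genes, Ork1 made up 3.35% and 2.73% with phenotype, against 1.54% and 1.36% without phenotype.

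The gene lies on the minus strand of the X chromosome at 10878054 to 10891250 (dm6, Ensembl annotation). Its 4 annotated transcripts have 3979 to 4409 bases in 8 exonic blocks, and no annotated gene overlaps it. Downstream, the locus of CG1637 (10870594 to 10877893, same strand) begins 160 bases away. CG1637 was at 126 and 126 FPKM with phenotype and 137 and 127 FPKM without phenotype, about an order of magnitude above Ork1. Its difference of log2(FPKM + 1) was -0.066 (adjusted p = 0.67 from limma), so the neighbor of Ork1 on that side had no difference of like size. Upstream, the divergent noncoding gene lncRNA:CR45616 (10891432 to 10891973) begins 181 bases away and was near 0, at 0.30 and 0.090 FPKM with phenotype and 0.040 and 0.040 FPKM without phenotype.

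Markers of several cell types of the head were compared in the same libraries. None of those tested had an adjusted p under 0.1 from limma, where 0.0883% of all genes tested did. An unadjusted p under 0.05 from limma was found for 5 of 6 fat body markers, 4 higher and 1 lower. It was also found for 6 of 12 muscle markers, all lower, and 3 of 8 glia markers, 1 higher and 2 lower. For neuron, photoreceptor and digestive tract markers the counts were 0 of 10, 1 of 12 and 0 of 4. The share over all genes tested was 22.7%. Of the 6 digestive tract markers 4 were tested, as the others had a mean under 1 FPKM. All of the 10 neuron, 8 glia, 12 photoreceptor, 12 muscle and 6 fat body markers were above 0 in every library. The summed FPKM of the fat body markers was 1624 and 1116 with phenotype and 2083 and 794 without phenotype, and 4 of the 6 were higher in both libraries with phenotype than in both without, while 1 was lower. Of all genes tested, 41.3% were higher and 18.3% lower in that sense. The sum of the muscle markers was 4935 and 4458 FPKM with phenotype, below the 6916 and 6364 FPKM without phenotype. In the same sense, 9 of the 12 muscle markers were lower and 0 higher. Of the 10 neuron, 8 glia and 12 photoreceptor markers, 5, 2 and 2 were higher and 0, 2 and 0 lower. For the neuron markers the sum was 1560 and 1635 FPKM with phenotype and 1447 and 1552 FPKM without phenotype. Glia markers summed to 1784 and 1442 FPKM with phenotype and 1815 and 1730 FPKM without phenotype, and photoreceptor markers to 2592 and 1889 FPKM with phenotype and 2027 and 1601 FPKM without phenotype. The digestive tract markers Jon25Bi and Jon99Ciii were each listed at 0 in at least 1 library, and the 6 of that list summed to 45.6 and 86.3 FPKM with phenotype and to 346 and 40.8 FPKM without phenotype. In whole heads, fewer cells of a type and less RNA per cell cannot be told apart, and the part of these markers in the level of Ork1 was not tested.

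The 9 other channel genes had much smaller differences than Ork1, and none passed the test. As Ork1 was chosen for its rise, at rank 74 of the 10194 genes tested, that gap is no result about the 9. In the fit across all genes, 0 of 9 had an adjusted p under 0.1 from limma, where 0.0883% of the genes tested did. At an unadjusted p under 0.05 there was 1, slo, against 22.7% of all genes tested. Differences were positive for 8 of 9, with a median of 0.13 against 0.070 over all genes. In 6 of 9 both libraries with phenotype were above both without (41.3% of all genes tested), and in 1 of 9, SK, both were below (18.3% of all genes tested). With 9 genes that share their libraries, nothing particular to them is read from these counts. Summed, the 9 genes were at 431 and 473 FPKM with phenotype and 412 and 432 FPKM without phenotype, a ratio of means of 1.07. The intervals given below are 95% intervals from limma of the ratio with over without phenotype on the FPKM + 1 scale (n = 2 each).

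**Figure D2:**
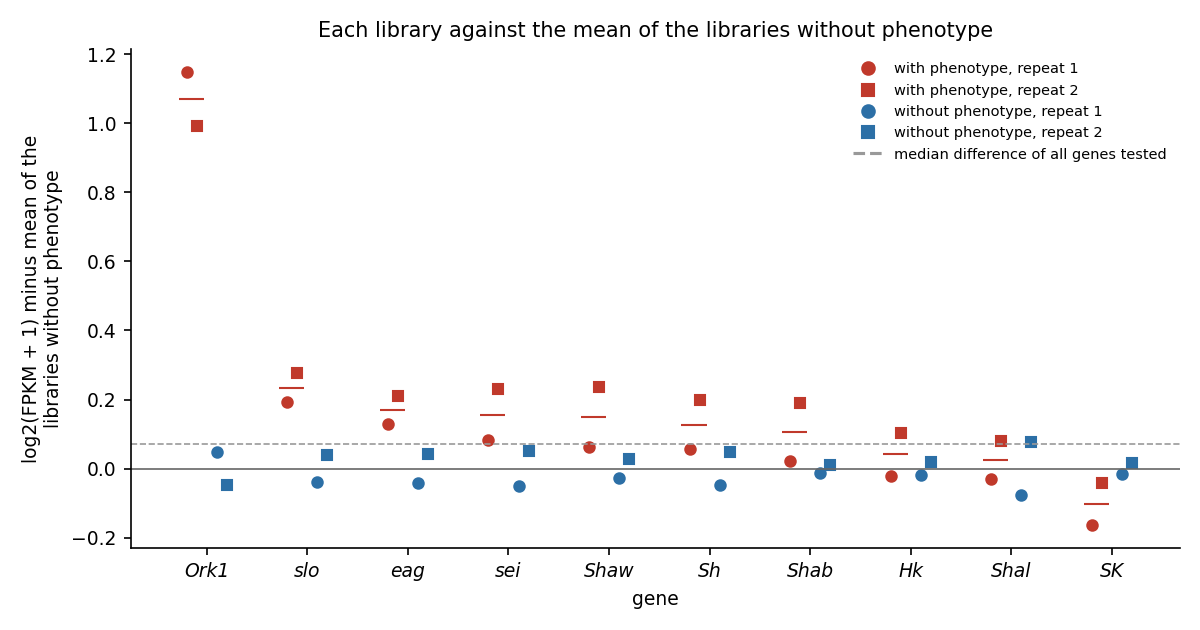
Log2(FPKM + 1) of each library minus the mean of the libraries without phenotype of the same gene, for the 10 channel genes, with circles for repeat 1, squares for repeat 2, a line at the mean with phenotype (n = 2) and a dashed line at the median difference of all genes tested (0.070). The libraries with phenotype sit near 1 for Ork1, while the means of the 9 others lie between -0.10 for SK and 0.23 for slo.

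Among the 4 genes of the Shaker class, ratios of means with over without phenotype ran from 1.02 for Shal to 1.11 for Shaw. Their intervals lay between 0.852 and 1.32. Sh was at 70.5 and 77.8 FPKM with phenotype and 65.4 and 70.1 FPKM without phenotype. The groups did not overlap, but they nearly touched, and the difference of 0.13 on the log2 scale did not pass (interval 0.914 to 1.30, adjusted p = 0.46 from limma). Shab, which carries much of the sustained delayed rectifier current, was at 87.4 and 98.2 FPKM with phenotype and 85.3 and 86.7 FPKM without phenotype. Repeat 2 with phenotype was the high library here, and the other libraries lay close together (interval 0.900 to 1.29, adjusted p = 0.53 from limma). Shaw, a slow channel that is open near rest and hardly inactivates, was at 35.4 and 40.0 FPKM with phenotype and 33.2 and 34.6 FPKM without phenotype (interval 0.933 to 1.32, adjusted p = 0.39 from limma). Again repeat 2 with phenotype was the highest and the groups did not overlap. Shal, which carries the transient current of neuronal cell bodies and dendrites, was at 36.5 and 39.5 FPKM with phenotype and 35.3 and 39.5 FPKM without phenotype. Its groups overlapped over most of their range, and the difference of 0.024 (interval 0.852 to 1.21, adjusted p = 0.89 from limma) turned to -0.057 when libraries were rescaled by median ratios.

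Hk, the cytoplasmic beta subunit of the Sh channel, was at 64.2 and 70.1 FPKM with phenotype and 64.3 and 66.1 FPKM without phenotype. The libraries without phenotype lay within the range of those with phenotype. Its difference of 0.041 (interval 0.874 to 1.21, adjusted p = 0.80 from limma) turned to -0.041 under the same rescaling. The annotated exons of Hk share 120 bases with a noncoding gene on the opposite strand, asRNA:CR43959. It was looked up by that full name only, which matched no row of the table, so whether it was measured is not known. The sources used here do not say whether reads were counted by strand, so reads in such overlaps cannot be told apart.

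The ether-a-go-go class was represented by eag and sei. eag, whose mutants also shake under ether, was at 14.5 and 15.4 FPKM with phenotype and 12.8 and 13.6 FPKM without phenotype. Both libraries with phenotype were above both without, by less than 1 FPKM between the nearest (interval 0.980 to 1.29, adjusted p = 0.26 from limma). sei, the fly relative of the human HERG channel, whose mutants are paralyzed by heat, was at 19.6 and 21.9 FPKM with phenotype and 17.8 and 19.2 FPKM without phenotype. The nearest libraries of the groups, repeat 1 with and repeat 2 without phenotype, lay close together (interval 0.946 to 1.31, adjusted p = 0.35 from limma). In dm6, sei (2R, 24047411 to 24053035) shares 359 exonic bases with gammaSnap1 and 119 with ppk29, both on the opposite strand. gammaSnap1 was at 78.3 and 88.4 FPKM with phenotype and 78.3 and 82.8 FPKM without phenotype, well above sei, while ppk29 was at 1.66 and 1.47 FPKM with phenotype and 1.24 and 1.17 FPKM without phenotype. The level of sei is therefore uncertain to the extent that reads of these genes were shared.

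The calcium-activated channels lay on opposite sides of 0. slo, the large-conductance channel gated by calcium and voltage together, was at 62.2 and 66.1 FPKM with phenotype and 52.8 and 55.9 FPKM without phenotype. The groups were apart, with 6.29 FPKM between the nearest libraries. Its difference of 0.23 was the largest of the 9 and reached an unadjusted p of 0.046, but it did not pass over all genes (interval 1.00 to 1.38, adjusted p = 0.21 from limma). SK, the small-conductance channel gated by calcium alone, was at 40.7 and 44.5 FPKM with phenotype and 45.3 and 46.3 FPKM without phenotype. It was the only one of the 10 with lower values in both libraries with phenotype, by less than 1 FPKM between the nearest (difference -0.10, interval 0.797 to 1.09, adjusted p = 0.49 from limma). Whether slo and SK differed from each other in this contrast was not tested.

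Ork1 also differed from the 9 others in how the repeats of a group compared, which the choice of Ork1 did not use. In each group, all 9 other genes were higher in repeat 2 than in repeat 1, and Ork1 was lower in repeat 2. The repeat numbers name libraries, and no pairing of same-numbered libraries between the groups is stated. Within the group with phenotype, the log2 gap of repeat 1 over repeat 2 was 0.16 for Ork1 and ran between -0.079 for eag and -0.17 for Shaw among the others. Without phenotype it was 0.094 for Ork1 and between -0.023 for Shab and -0.16 for Shal. Of all genes tested, 36.9% had the order of the 9 in both groups and 15.8% had the order of Ork1. The order of the 9 was not particular to them. It was found for 14 of the 19 other potassium channel and partner genes described below, among them 8 of 9 leak channels. Of 16 voltage-gated cation channel genes, 14 had it. The order of Ork1 was found for 1 of these 19 and 0 of these 16. Among markers, the order of the 9 was found for 7 of 10 neuron, 0 of 8 glia, 1 of 12 photoreceptor, 2 of 12 muscle and 0 of 6 fat body markers. The order of Ork1 was found for 0 of 10 neuron, 4 of 8 glia, 9 of 12 photoreceptor, 6 of 12 muscle and 5 of 6 fat body markers. This pattern was noticed in the values, and the 9 genes share their libraries, so it is given with no test.

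Ork1 is 1 of 10 leak channel genes of the two-pore domain family examined here, and none of the 9 others differed by a like amount. Ork1 was chosen for its rise, at rank 74 of the 10194 genes tested, so that contrast is no result about the family. The differences of log2(FPKM + 1) of the 9 others ran between -0.31 and 0.32, with a median of 0.092. None passed (0 of 9 at an adjusted p under 0.1 and 3 at an unadjusted p under 0.05 from limma, where 22.7% of all genes tested had one). Both libraries with phenotype were above both without in 4 of 9 and below in 2 of 9, against 41.3% and 18.3% of all genes tested. Task6, the most abundant of the family, was at 21.3 and 25.2 FPKM with phenotype and 21.0 and 22.3 FPKM without phenotype (adjusted p = 0.61 from limma). Its groups overlapped. CG1688, with the largest difference of the 9, was at 8.60 and 9.31 FPKM with phenotype and 6.83 and 7.15 FPKM without phenotype (log2 difference 0.32, adjusted p = 0.15 from limma). The groups of CG1688 were apart, though by a ratio of 1.28 and not the 2.28 of Ork1. The gene sand, a leak channel of sleep-promoting neurons that is listed under its older name CG8713, was at 5.45 and 5.51 FPKM with phenotype and 6.38 and 7.70 FPKM without phenotype (log2 difference -0.31, adjusted p = 0.20 from limma). Here both libraries with phenotype were the lower ones. Ork1 was at rank 3 of the 10 in both libraries with phenotype, and at ranks 5 and 7 in those without phenotype. It made up 16.1% and 13.1% of their summed FPKM with phenotype, against 7.74% and 6.84% without phenotype. Without Ork1, the family summed to 78.1 and 88.1 FPKM with phenotype and to 76.6 and 81.1 FPKM without phenotype.

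**Figure D3:**
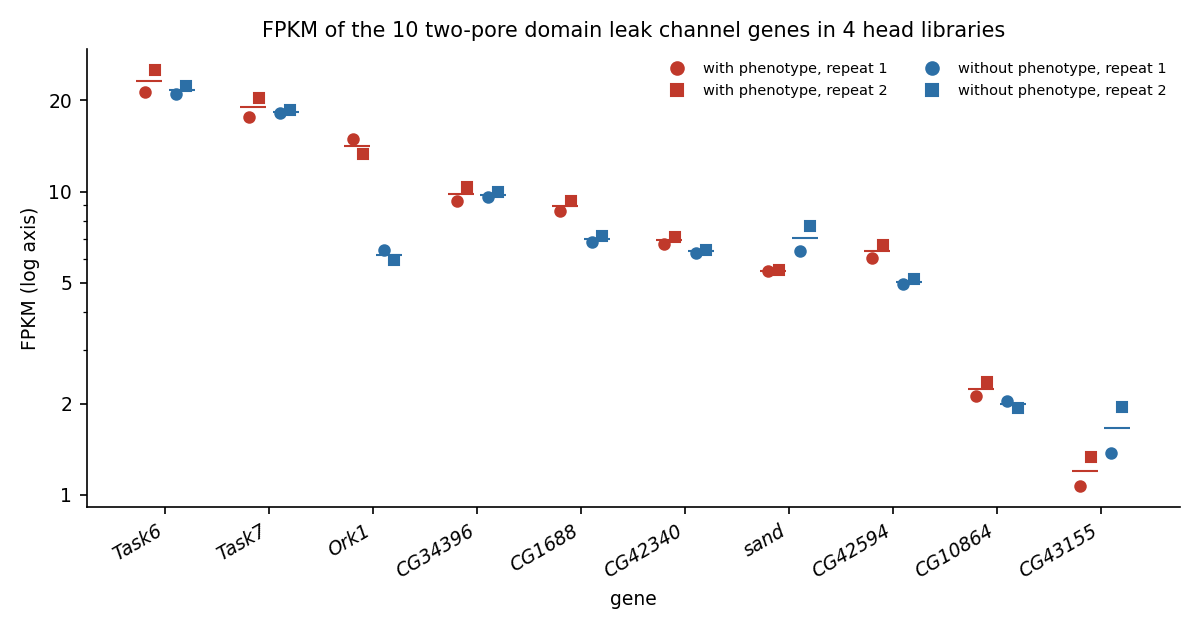
FPKM of the 10 two-pore domain leak channel genes (log axis), ordered by mean level, with circles for repeat 1 and squares for repeat 2 of each group and a line at each group mean (n = 2). Ork1 stands at rank 3 with phenotype (15.0 and 13.3 FPKM) and among the middle genes of the family without phenotype (6.43 and 5.96 FPKM), while Task6 and Task7 stay above it in every library.

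Other potassium channels of the head did not pass either. The inward rectifiers, which let potassium in more easily than out, had a median difference of -0.25. Irk2, the most abundant of the 3, was at 59.6 and 47.6 FPKM with phenotype and 62.8 and 71.1 FPKM without phenotype (log2 difference -0.32, adjusted p = 0.26 from limma). Both libraries with phenotype were lower, as they were for Irk1, while Irk3 was higher in both. KCNQ, the slow voltage-gated channel of the M-current type, was at 16.8 and 17.8 FPKM with phenotype and 11.8 and 13.7 FPKM without phenotype. After that of Ork1, its difference of 0.41 was the largest of the potassium channel genes examined, with 3.05 FPKM between the nearest libraries (ratio of means 1.36, adjusted p = 0.15 from limma). SLO2, the sodium-activated relative of slo that is listed as CG42732, was at 26.5 and 29.6 FPKM with phenotype and 22.2 and 24.5 FPKM without phenotype (log2 difference 0.25, adjusted p = 0.22 from limma). With Elk, all 3 genes of that list were higher in both libraries with phenotype. Of all genes tested, 41.3% were higher and 18.3% lower in that sense.

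Of the partner proteins, qvr, a membrane-anchored protein that raises Sh levels and speeds its gating and whose loss shortens sleep, had the highest level. It was at 109.9 and 125 FPKM with phenotype and 95.1 and 95.9 FPKM without phenotype. Both libraries with phenotype were above both without (log2 difference 0.29, ratio of means 1.23, adjusted p = 0.20 from limma). Slob, which binds the slo channel, was at 49.1 and 48.2 FPKM with phenotype and 43.1 and 43.7 FPKM without phenotype (adjusted p = 0.28 from limma). Its repeats lay close together and its groups did not overlap, and its difference was 0.16 on the log2 scale. Over the 19 other potassium channel and partner genes, 0 passed and 7 had an unadjusted p under 0.05 from limma, 6 with a positive and 1 with a negative difference (22.7% of all genes tested had such a p). In 11 both libraries with phenotype were above both without (41.3% of all genes tested), in 4 both were below (18.3%), and the median difference was 0.12 against 0.070 over all genes.

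Voltage-gated sodium and calcium channels and related cation channels, which bring the inward current that potassium channels oppose, were all on the positive side, by small amounts. All 16 genes of this list had a positive difference, as 62.7% of all genes tested did, with a median of 0.16 and a range of 0.027 to 0.38. In 11 both libraries with phenotype were above both without (41.3% of all genes tested). None passed (0 at an adjusted p under 0.1 and 6 at an unadjusted p under 0.05 from limma, against 22.7% of all genes tested for the second). Ih, a channel opened by hyperpolarization and the most abundant of the list, was at 110.4 and 114.8 FPKM with phenotype and 106 and 111 FPKM without phenotype (adjusted p = 0.73 from limma). Its groups overlapped. The gene unc79, a subunit of the sodium leak channel complex, was at 68.2 and 76.9 FPKM with phenotype and 55.8 and 55.3 FPKM without phenotype. It had the largest difference of the list, 0.38 (adjusted p = 0.16 from limma), and its groups did not overlap. Rescaling by median ratios moved the median difference of all genes tested to -0.0064, and the positive sides named here are to be read against the 0.070 before it.

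**Figure D4:**
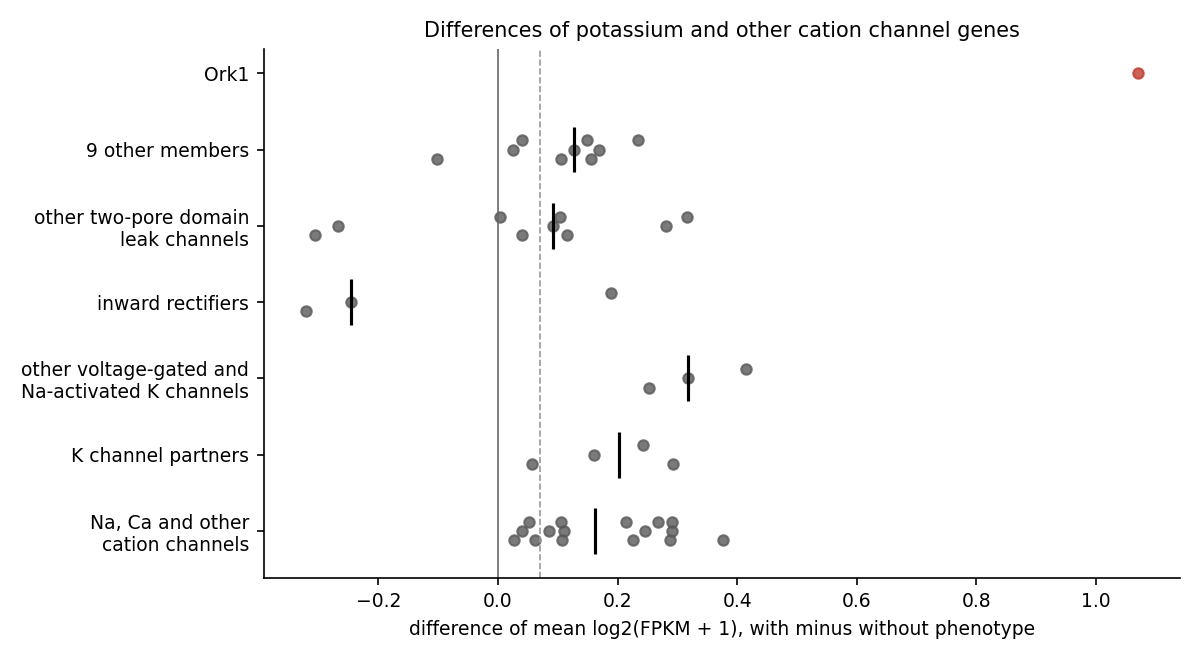
Difference of mean log2(FPKM + 1), with minus without phenotype, for Ork1 and for each gene of 6 other groups of channel genes (points), with a short line at the median of each group and a dashed line at the median of all genes tested (0.070). Ork1 lies at 1.07, and all other points lie between -0.32 for Irk2 and 0.41 for KCNQ.

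The genes whose profile was most like that of Ork1 were not potassium channels. Likeness was measured over the 4 libraries as the root mean square difference of log2(FPKM + 1), each gene centered on its own mean, so genes that differ between the groups as Ork1 does are favored. The closest was daw, which encodes an activin-like ligand, at 52.9 and 46.1 FPKM with phenotype and 25.3 and 22.2 FPKM without phenotype (root mean square difference 0.040). Next was shd, the cytochrome P450 that turns ecdysone into 20-hydroxyecdysone, at 3.20 and 2.64 FPKM with phenotype and 1.02 and 0.75 FPKM without phenotype (0.044). Like Ork1, both were higher in repeat 1 than in repeat 2 of either group, an order that the measure of likeness itself takes in. Then came snoRNA:Me28S-C3227b (0.061), CG33965 (0.077) and CG31664 (0.077). The snoRNA was at 3.55 and 3.39 FPKM with phenotype and 1.32 and 1.22 FPKM without phenotype. CG33965 was at 3.20 and 3.01 FPKM with phenotype and 1.23 and 0.84 FPKM without phenotype. At such low levels, as for shd, the pseudocount of 1 shrinks differences, so likeness on this scale is not likeness of FPKM ratios. CG31664 was at 13.8 and 14.0 FPKM with phenotype and 5.82 and 5.63 FPKM without phenotype, a level near that of Ork1. Of the 9 other channel genes, slo was the closest, at rank 1817 of 10193 genes (0.43), and SK the farthest, at rank 7589 (0.60).

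**Figure D5:**
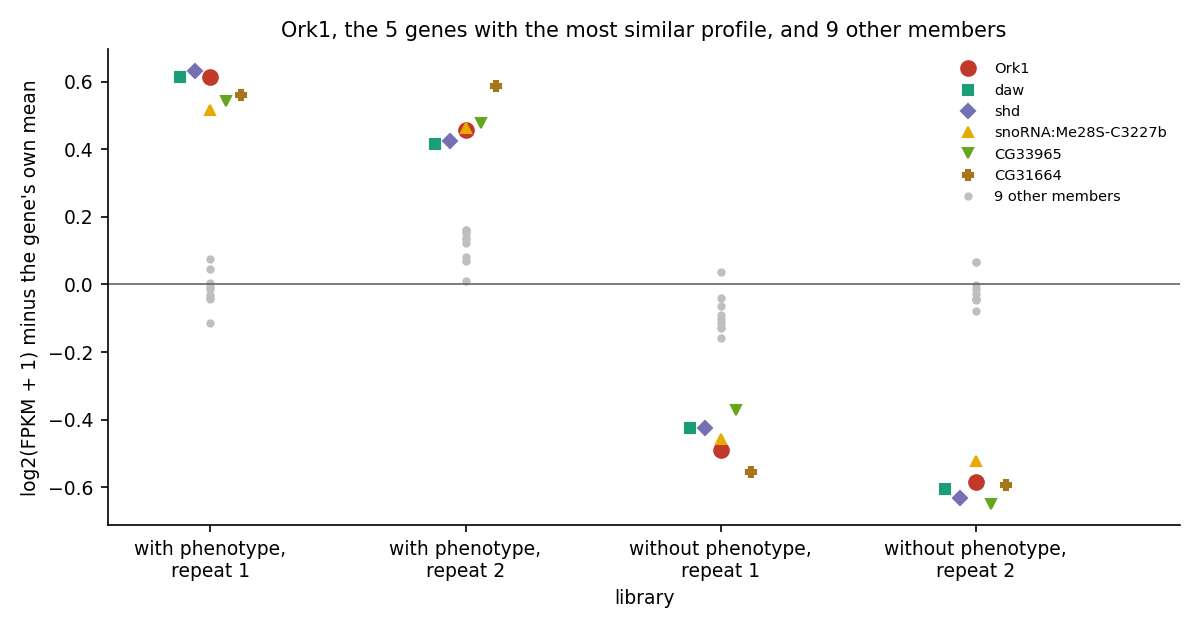
Log2(FPKM + 1) minus the gene's own mean over the 4 libraries, for Ork1, for the 5 genes of most similar profile and, in gray, for the 9 other channel genes, with the libraries on the x axis. Ork1 and the 5 genes lie above 0 in both libraries with phenotype and below 0 in both without, and the 9 other channel genes stay near 0.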

How the data were processed

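RNA of 4 libraries was sequenced by the authors as single reads of 50 cycles, mapped by Bowtie 2 against the mRNAs of RefSeq (dm6) and quantified by RSEM, and the values were deposited as FPKM per gene to 2 decimals, 1 column per library. The submitters' processing notes also name dm3, which the study used for genome sequencing. No version of these tools was found in the sources used. FPKM are not counts, so no count test was used, and the EBSeq test of the study could not be repeated. Genes whose mean reached 1 FPKM entered a linear model of log2(FPKM + 1) on group, fitted by limma (version 3.58.1, R 4.3.3) with a mean-dependent prior variance. Two-sided p-values were adjusted by the Benjamini-Hochberg method over the 10194 genes, and 0.1 was the threshold. The fit was tested on simulated data. An alternative pseudocount, filters, scaling, threshold, trend, replicate block and leaving out each library were tried. Fold changes on this scale understate those of low genes. Relative depth was estimated from percentile 1 of FPKM times effective length in genes with 1 transcript of 300 to 700 bases. The reads per kb of Ork1 take that percentile as 1 read, which was not checked.

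The members and lists were chosen with earlier results of these data known. The genes named are the 10 members, in each list of channels or partners the most abundant gene and that with the largest difference, the 5 genes most like Ork1 and the neighbors of Ork1. Slob, sand, Irk1, Irk3, Elk and Task7 were named after their values were seen. Names in the lists were matched to the table directly or through older symbols in RefSeq (Release 6 plus ISO1 MT). The leak channel list held 10 entries, of which sand and CG8713 are 1 gene. Tables were handled in pandas 2.3.3 (Python 3.11.15). Loci follow Ensembl gene models on dm6.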

Additional observations from a re-analysis of the deposited data

How the results depend on the processing

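The log2 difference of Ork1 was 1.07 as reported, 1.18 with a pseudocount of 0.1, 1.00 with median-ratio scaling and 0.99 to 1.15 without single libraries. None of the 9 other members passed under any of the alternatives tried. Apart from the crossed pairing described below, of which only counts are given, their adjusted p ran from 0.21 to 0.96 from limma. Of 99 such values, 94 kept their direction and 5 turned. The filters, the trend, the replicate block and the threshold leave the difference itself unchanged. A direction could therefore turn only with the pseudocount, the scaling or a library left out, and the count of 94 includes values that could not turn. With median-ratio scaling Shal turned to -0.057 and Hk to -0.041. Without single libraries, Shal ran from -0.054 (without repeat 1 without phenotype) to 0.10, and Hk from -0.021 (without repeat 2 with phenotype) to 0.10. Shal was also negative without repeat 2 with phenotype (-0.032). The cause was not tested. The other potassium channel and cation channel genes had 0 passing under every alternative, the crossed pairing included.

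The count of all genes past the threshold was unstable. It was 9 as reported, 23 with a pseudocount of 0.1, 109 with a filter of 5 FPKM, 3 with no filter, 4 with median-ratio scaling, 5 without trend and 4 at a threshold of 0.05. It was 0 with a replicate block, 0 without either library with phenotype, 509 without repeat 1 and 142 without repeat 2 without phenotype. A lone library in a group is then assumed to vary like the other group. The repeat numbers share no stated source, and deviations of same-numbered libraries had a correlation of -0.13 across genes. With the crossed pairing, added after the data were seen, the count was 404. Exact depth is unknown and 2 libraries per group limit every test: an adjusted p that misses the threshold does not show that a gene was unchanged.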

Other observations

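The sodium pump and cation-chloride cotransporters, which build and use the potassium gradient that the channels act on, were examined in addition. These 6 genes were chosen after the other values were seen and are given with no test. Atpalpha, the catalytic subunit of the pump, was at 1071 and 985 FPKM with phenotype and 1042 and 1045 FPKM without phenotype, and its groups overlapped. The beta subunit genes nrv1, nrv2 and nrv3 were each lower in both libraries with phenotype, as 18.3% of all genes tested were. nrv1 was at 129 and 119 FPKM with phenotype and 149 and 174 FPKM without phenotype. nrv2, also on the list of glia markers, was at 262 and 217 FPKM with phenotype and 312 and 305 FPKM without phenotype. For both, the difference of mean log2(FPKM + 1) was -0.37. In nrv3, the difference was -0.11, at 408 and 404 FPKM with phenotype and 438 and 441 FPKM without phenotype. The potassium-chloride cotransporter kcc was at 250.2 and 260.1 FPKM with phenotype and 243 and 264 FPKM without phenotype, with overlapping groups. Ncc69, a sodium-potassium-chloride cotransporter, was at 52.1 and 41.4 FPKM with phenotype and 51.7 and 71.2 FPKM without phenotype, and repeat 2 without phenotype stood above the 3 other libraries.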
